A study of Mus musculus with 6 samples.

Results

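Raf kinase inhibitor protein (Rkip-1), the product of the gene Pebp1, and the Raf, MEK and ERK kinases it acts on were followed in whole pancreas of mice without Rkip-1. The genes were chosen by name as Pebp1, the Raf kinases Braf and Araf, the MEK kinases Map2k1 and Map2k2, the ERK kinase Mapk3 and the scaffold Ksr1. A probe set, the group of short probes that reads 1 transcript on an Affymetrix array, was taken where the platform annotation gave it a single gene. This found 22 probe sets of 6 of the 7 genes, among 45037 probe sets and 18194 genes tested in all. There were 2 for Pebp1, 5 for Araf, 9 for Braf, 1 for Map2k1, 2 for Map2k2 and 3 for Ksr1, and Mapk3 was not analysed here.

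The samples were 3 pancreases of Rkip-1 KO mice and 3 of WT mice, with 1 array each, which the labels call biological replicates without saying how many mice gave each one. All mice were 8 weeks old and came from the same colony on a C57BL/6 background, where the KO mice carried the Rkip-1 knockout. The labels give neither the deleted part of the gene nor the sex of the mice. Whole pancreas is mostly enzyme-secreting acinar tissue, with ducts, islets, vessels and connective tissue among it.

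In the kinase cascade studied, Ras at the membrane activates Raf kinases, Raf phosphorylates MEK, and MEK phosphorylates ERK, which then acts on transcription factors and further kinases. Rkip-1 binds Raf and MEK and keeps Raf from phosphorylating MEK. Phosphorylation of Rkip-1 by protein kinase C releases it from Raf. The arrays read transcript levels, whereas Rkip-1 acts on the activity of kinase proteins, which was not measured.

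Values are deposited RMA expression values on the log2 scale. Differences are KO minus WT on that scale, with the standard error and 95% interval of limma's moderated test and its p adjusted by the Benjamini-Hochberg method over all 45037 probe sets. The threshold was 0.05 on the adjusted p, and a probe set under it is said to have passed. The arrays were close to each other, with medians of 2.97 to 3.02 and correlations of 0.989 to 0.993 over all probe sets. The acinar markers Cpa1, Cel, Ctrb1 and Cela1 lay between 14.26 and 14.39 on every array, where the highest value of any probe set was 14.57, so the labelled tissue showed its defining markers. Among the fat markers Adipoq stood apart in KO replicate 1, at 2.26 against 5.12 to 6.99 on the other arrays. Xist was high in KO replicates 2 and 3 and WT replicate 3, at 9.09 to 9.79, and at 4.43 or below on the other arrays. Arrays with high Xist were thus not balanced between KO and WT, and the labels give no sex to set beside them. No scan date or other batch was given.

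Pebp1 fell in every KO pancreas, at both of its probe sets. Probe set 1438649_x_at measured 5.89, 6.50 and 5.71 in KO replicates 1, 2 and 3, against 9.81, 10.01 and 9.81 in WT replicates 1, 2 and 3. The groups lay more than 3 log2 units apart at their nearest arrays. The mean was 6.03 ± 0.41 in KO and 9.88 ± 0.12 in WT (SD, n = 3 each), a difference of -3.84 (standard error 0.18, 95% interval -4.25 to -3.44, limma adjusted p = 5.05e-05). On the linear scale 6.97% of the WT signal was left in KO, with an interval of 5.27% to 9.21%.

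The second probe set of Pebp1, 1415950_a_at, measured 2.76, 3.35 and 3.56 in KO, against 8.58, 8.53 and 8.45 in WT. All 3 KO values were low, and no WT array came near them. The difference was -5.30 (standard error 0.18, interval -5.70 to -4.90, limma adjusted p = 4.30e-06), which left 2.54% of the WT signal. Because the KO level lies in the range of silent genes, described next, the size of this difference is a lower bound. Across the array, 11 probe sets or 0.0244% were called lower in KO, and both probe sets of Pebp1 were among them. No other probe set had a difference below -2.63, that of Chac1, which did not pass (limma adjusted p = 0.142).

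The KO signal left at each probe set was set beside a background range. 12 genes of retina, germ cells, olfactory neurons and tooth enamel, listed as silent in pancreas, lay between 2.10 and 4.30 on the KO arrays and between 2.08 and 4.39 on the WT arrays. Prm1 alone sets the top of this range, and the highest value of the other 11 was 3.61. In KO, 1415950_a_at lay inside this range, with or without Prm1, and at the 40th to 63rd percentile of the arrays' probe sets. In contrast 1438649_x_at lay above each of the 12 genes on every KO array, at the 85th to 90th percentile. The suffix of 1438649_x_at marks probe sets with probes that may also bind transcripts of other genes. That of 1415950_a_at marks probe sets that read several transcripts of the same gene. Whether the remaining signal came from Pebp1 itself was not tested. A further probe set that the annotation gives to several genes, Pebp1 among them, was outside the rule.

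**Figure D1:**
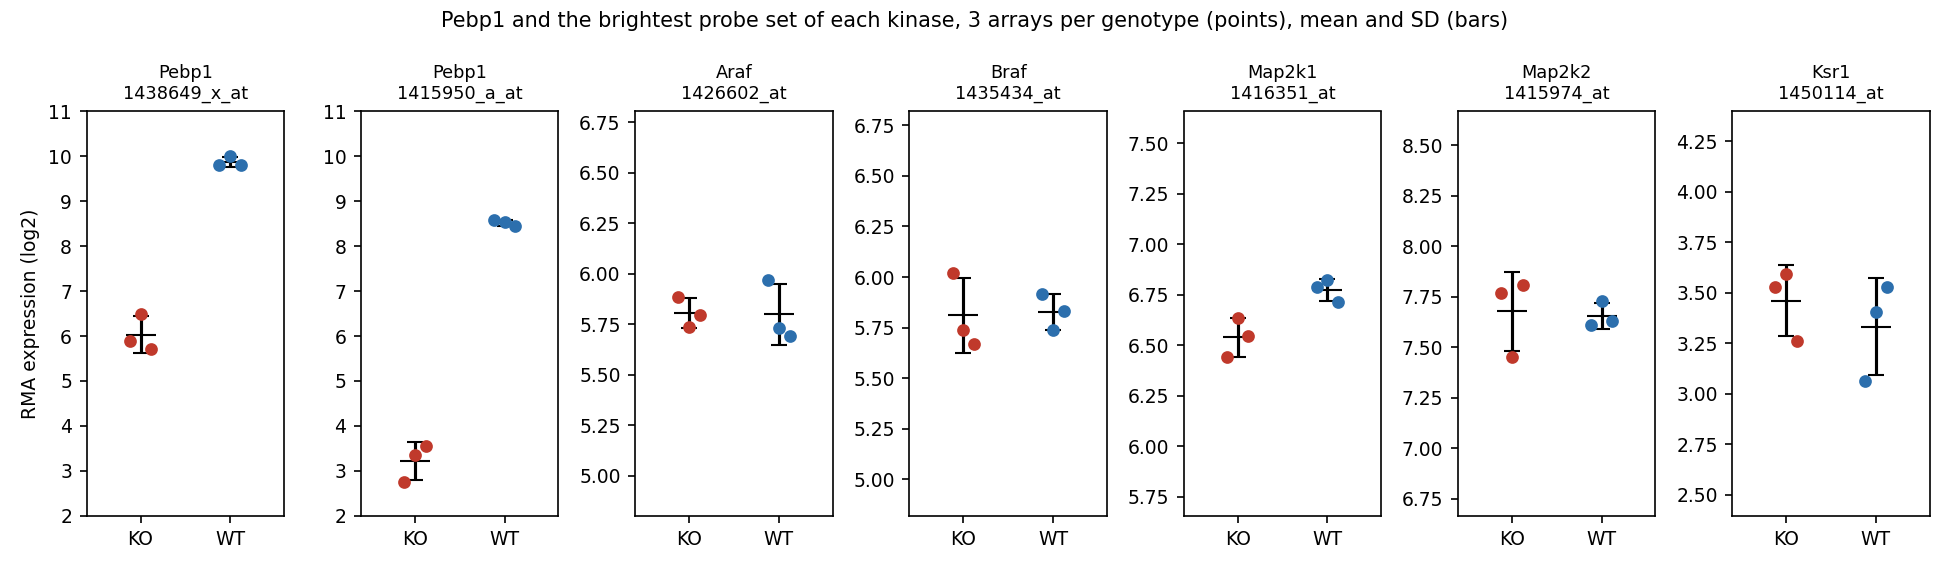
RMA expression on the log2 scale (y axis) of both Pebp1 probe sets and of the brightest probe set of each measured kinase, in 3 KO and 3 WT arrays (points), with mean and SD (bars). The y axes of the kinases span the same range but start at different levels, so levels are compared within a panel. Pebp1 is separated by genotype in both panels, the Map2k1 groups do not overlap, and the groups of the other kinases do.

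The spread of Pebp1 was wider in KO, with SDs of 0.41 and 0.42, than in WT, with SDs of 0.12 and 0.07. The KO arrays did not keep the same order at both probe sets, since KO replicate 2 was highest at 1438649_x_at and KO replicate 3 at 1415950_a_at. The reference sequence just before the start of Pebp1 is given as a description. It does not show which part of the gene was removed in these mice. The 250 bases before the start, on the minus strand of chr5:117287565-117287814 (GRCm38.p6, RefSeq), hold 24 CpG dinucleotides, against a median of 6 over 32851 such windows. Capitals mark matches to a GC box (GGGCGG, 2 matches) and a CCAAT box (CCAAT, 1 match), searched on both strands.
Pebp1: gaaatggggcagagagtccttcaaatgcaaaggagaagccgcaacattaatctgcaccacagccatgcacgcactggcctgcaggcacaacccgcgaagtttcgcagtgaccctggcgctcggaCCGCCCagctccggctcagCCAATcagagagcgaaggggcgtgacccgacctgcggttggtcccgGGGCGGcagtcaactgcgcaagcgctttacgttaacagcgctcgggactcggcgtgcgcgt
GGGCGG occurs in 32.7% and CCAAT in 33.8% of the windows. The TATA box, searched as TATAAA and found in 12.4% of windows, was not in that of Pebp1. Neither was the cyclic AMP response element, searched as TGACGTCA and found in 1.55% of windows, nor the ETS core, searched as CCGGAA and found in 12% of windows. A match is a description of the letters and no evidence of binding.

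None of the kinases that Rkip-1 acts on passed the test. Of 20 kinase probe sets, 11 were higher and 9 lower in KO, with a median difference of 0.011 against 0.0057 over all 45037 probe sets. The median size of the difference, whatever its sign, was 0.084, against 0.088 over all probe sets. With limma 0 of the 20 passed, where 0.0977% of all probe sets did (0.0733% higher and 0.0244% lower in KO), and 1 had an unadjusted p under 0.05, where 8.68% of all did. The groups did not overlap at 3 of the 20, against 13.5% of all probe sets. All 3 were lower in KO, which held for 6.51% of all probe sets, and 2 of them read the same gene, Braf. All 20 intervals together ran from -0.44 to 0.49, that is from 0.736-fold to 1.41-fold. Of the 20, 14 lay below the upper quartile on every array, and 7 of these at or below the median. At such dim probe sets a change in transcript may be understated, so these are bounds on probe signal. In bulk tissue, fewer cells of a type and less RNA per cell cannot be told apart.

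**Figure D2:**
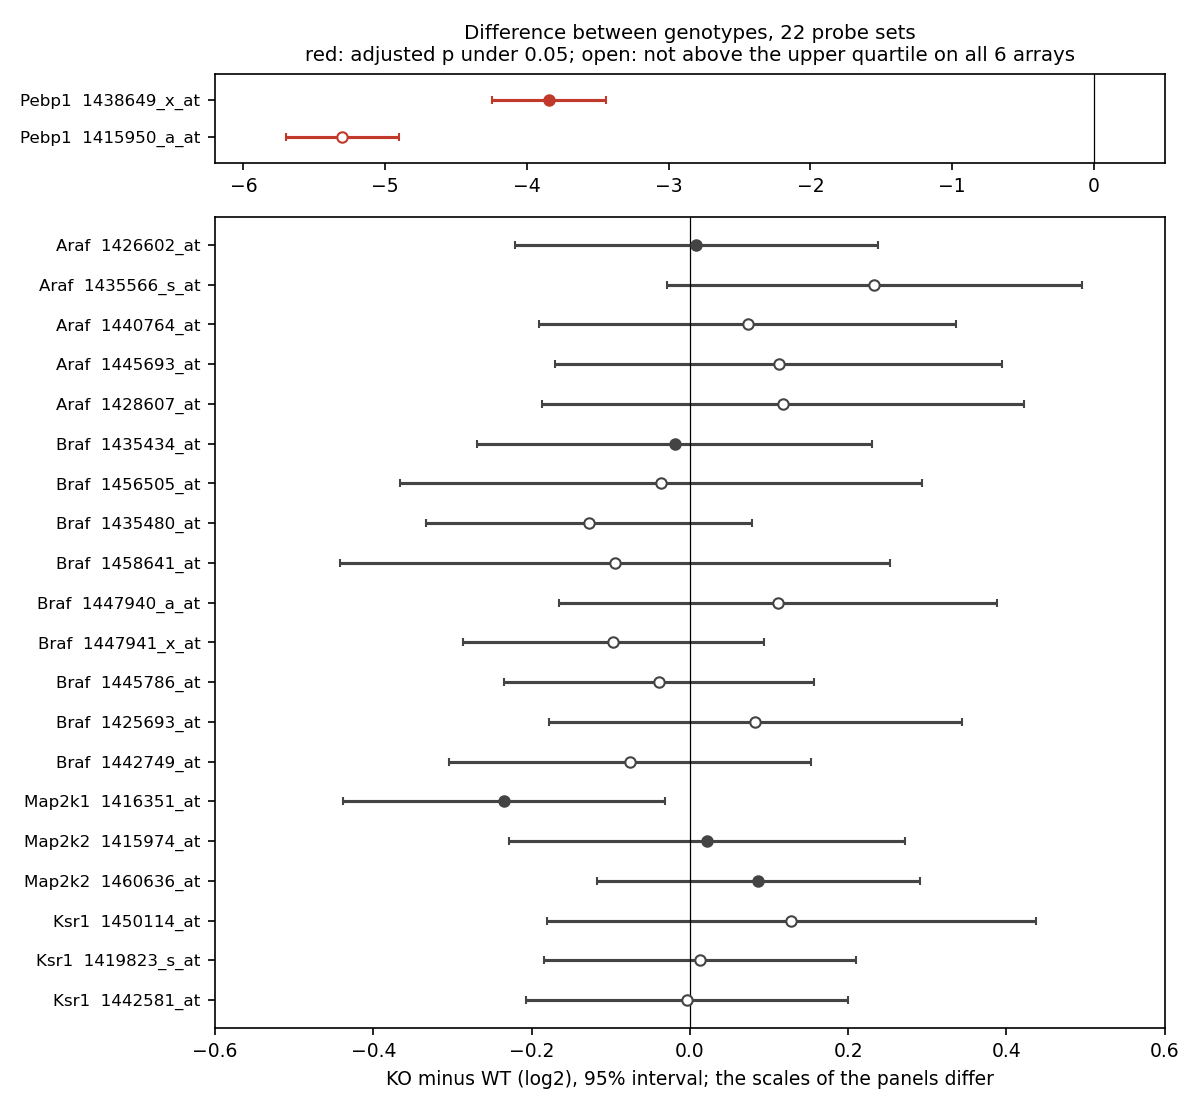
Difference KO minus WT on the log2 scale with 95% interval (x axis) for the 2 Pebp1 probe sets (upper panel) and the 20 kinase probe sets (lower panel, on a magnified scale). Filled points lie above the upper quartile of every array, and red marks an adjusted p under 0.05. The Pebp1 intervals end at -3.44 or lower, and of the kinase intervals that of Map2k1 alone leaves out 0.

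Araf, a Raf kinase encoded on the X chromosome, measured 5.89, 5.74 and 5.80 in KO, against 5.97, 5.73 and 5.69 in WT, at its brightest probe set 1426602_at. The groups overlapped fully. The difference was 0.0084 (interval -0.22 to 0.24, limma adjusted p = 0.990), and it was -0.013 with equal array medians. With the Xist level of each array as a covariate it was 0.060. Probe set 1435566_s_at read 4.70, 4.76 and 4.46 in KO and 4.56, 4.43 and 4.24 in WT, a difference of 0.23 (interval -0.03 to 0.49, limma adjusted p = 0.623). One KO array lay below the highest WT array there. The Xist covariate gave 0.30 at 1435566_s_at, with an unadjusted p of 0.030 and an adjusted p of 0.609 by limma. The other Araf probe sets were below the upper quartile of about 4.5 on every array, and all 5 had a KO mean above the WT mean by 0.0084 to 0.23.

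Braf, the Raf kinase with the highest basal activity, measured 6.02, 5.74 and 5.67 in KO, against 5.92, 5.74 and 5.83 in WT, at its brightest probe set 1435434_at. The KO arrays spread more widely than the WT arrays and enclosed them. The difference was -0.019 (interval -0.27 to 0.23, limma adjusted p = 0.979), which turned to 0.035 after a second quantile normalization and to 0.043 with the Xist covariate. The other 8 probe sets of Braf lay below the upper quartile on all arrays, between 2.09 and 4.26. Their differences ran from -0.13 to 0.11, with 6 lower and 2 higher in KO. The KO arrays lay below the WT arrays without overlap at 2 of these dim probe sets, 1435480_at and 1447941_x_at. The differences there were -0.13 and -0.097, with adjusted p of 0.746 and 0.799 by limma.

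Map2k1, which encodes the kinase MEK1, measured 6.44, 6.63 and 6.54 in KO, against 6.79, 6.82 and 6.72 in WT, at its single probe set 1416351_at. Every KO array was lower than every WT array, by a small margin. The mean was 6.54 ± 0.10 in KO and 6.77 ± 0.05 in WT (SD, n = 3 each). The difference was -0.23 (standard error 0.091, interval -0.44 to -0.03), or 0.850-fold, with an unadjusted p of 0.0281 and an adjusted p of 0.511 by limma, so it did not pass. Over the alternatives run it lay between -0.28 and -0.17, with adjusted p of 0.406 to 0.772.

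Markers of the cell types that whole pancreas can hold were read beside these values, with 1 probe set per gene, and 0 of any list passed the limma test. Over all genes 50.2% were lower in KO, 10.1% had an unadjusted p under 0.05 by limma and 14.4% did not overlap between groups. Stellate cell and fibroblast markers had a KO mean below the WT mean in 6 of 6, with 4 under an unadjusted p of 0.05 and 4 without overlap. Their summed linear level was 2848 to 4047 in KO and 4167 to 5446 in WT (exact permutation p = 0.1, the smallest possible). Acinar markers were below WT in 5 of 5, with 1 under an unadjusted p of 0.05 and 2 without overlap. That 1 was Ptf1a, at a difference of -0.56 with overlap (limma adjusted p = 0.519). The acinar sum was 81167 to 82537 in KO and 83395 to 83749 in WT (exact permutation p = 0.1). It rests on probe sets near the highest value of the arrays. Islet markers were below WT in 6 of 6, with 1 under an unadjusted p of 0.05 and 1 without overlap, and sums of 10826 to 12127 in KO and 12052 to 13081 in WT.

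Other lists ran higher in KO or both ways. Neuron and glia markers were higher in 4 of 4, with 0 under an unadjusted p of 0.05 by limma and sums of 43.4 to 50.7 in KO and 41.4 to 44.1 in WT. Duct markers were higher in 3 of 4, with 1 under an unadjusted p of 0.05, and summed to 116 to 147 in KO and 115 to 132 in WT. That 1 was Sox9, a duct transcription factor, at a difference of 0.52 without overlap (limma adjusted p = 0.389). Immune markers were higher in 3 of 5, with 2 under an unadjusted limma p of 0.05, both without overlap. These 2 went opposite ways, Adgre1 at -0.26 and Cd3e at 0.24. Endothelial markers were higher in 2 of 4, with 1 under an unadjusted p of 0.05 and 0 without overlap. That 1 was Tek, which was lower in KO, at -0.33. Fat markers were higher in 1 of 3, with 0 under an unadjusted p of 0.05 and 0 without overlap. The sums of the duct, immune, endothelial and fat lists overlapped between the groups, as did those of the islet and neuron lists. The part of these markers in the Map2k1 values was not tested.

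Map2k2, which encodes MEK2, measured 7.77, 7.45 and 7.81 in KO, against 7.61, 7.73 and 7.63 in WT, at probe set 1415974_at. The KO arrays lay on both sides of the WT arrays. The difference was 0.022 (interval -0.23 to 0.27, limma adjusted p = 0.975). Its other probe set, 1460636_at, read 6.08, 6.02 and 5.92 in KO and 5.96, 5.98 and 5.83 in WT, a difference of 0.086 (interval -0.12 to 0.29, limma adjusted p = 0.841). The 250 bases before Map2k1 and Map2k2 are shown for the pair of MEK genes, with matches to the same motifs and to the ETS core in capitals. They lie on the minus strand of chr9:64253606-64253855 and the plus strand of chr10:81105665-81105914 (GRCm38.p6, RefSeq).
Map2k1: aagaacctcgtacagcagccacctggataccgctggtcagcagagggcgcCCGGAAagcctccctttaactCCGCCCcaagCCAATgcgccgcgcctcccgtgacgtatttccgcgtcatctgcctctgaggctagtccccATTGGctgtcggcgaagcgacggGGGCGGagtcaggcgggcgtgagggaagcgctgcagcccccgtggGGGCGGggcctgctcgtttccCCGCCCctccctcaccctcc
Map2k2: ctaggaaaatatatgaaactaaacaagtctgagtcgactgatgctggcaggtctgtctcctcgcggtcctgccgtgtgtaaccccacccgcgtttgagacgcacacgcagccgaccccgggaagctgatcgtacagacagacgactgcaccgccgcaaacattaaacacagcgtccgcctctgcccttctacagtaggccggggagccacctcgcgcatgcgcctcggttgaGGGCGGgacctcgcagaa
The window of Map2k1 held 4 GC boxes, 2 CCAAT boxes and 1 ETS core, and that of Map2k2 held 1 GC box and no match to the other motifs. Map2k1 had 24 and Map2k2 23 CpG dinucleotides, close to the 24 of Pebp1. Araf had 12 CpG and no GC box. Braf had 24 CpG, 1 GC box and 2 matches to TGACGTCA, which occurs in 1.55% of windows.

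Ksr1, a scaffold that holds Raf, MEK and ERK together, was dim at all 3 of its probe sets. The brightest, 1450114_at, measured 3.53, 3.59 and 3.26 in KO, against 3.07, 3.40 and 3.53 in WT, so that the groups overlapped. The difference was 0.13 (interval -0.18 to 0.44, limma adjusted p = 0.845). The other probe sets differed by 0.013 and -0.0034, with values between 2.47 and 3.21. All lay within the range of the genes listed as silent.

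The paralogue Ksr2, with a similar scaffold role, lies close to Pebp1 on chromosome 5, as the fifth measured gene on one side. It measured 3.88, 3.99 and 4.03 in KO, against 3.67, 3.86 and 3.55 in WT. Every KO array was higher than every WT array, at a dim level below the 4.39 of Prm1, though above the 3.61 of the other silent genes on every array but WT replicate 3. The difference was 0.27 (interval 0.04 to 0.51), with an unadjusted p of 0.0255 and an adjusted p of 0.50 by limma, so Ksr2 did not pass.

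The 10 measured genes on each side of Pebp1 showed no change the size of that of Pebp1. With limma 0 of these 20 neighbours were past the threshold, and the unadjusted p of 3 was under 0.05, against 10.1% of all genes. Of the 20, 12 were higher and 8 lower in KO. Their differences ran from -0.21 for Wsb2 to 0.27 for Ksr2. The nearest genes, Taok3 and Suds3 on one side and Vsig10 and Wsb2 on the other, differed by 0.066, 0.26, 0.040 and -0.21. The groups did not overlap at 5 of the 20, where the share over all genes was 14.4%. These were Suds3, Ksr2, Nos1, Hrk and 1110006O24Rik, and the last 3 of them were chosen after their values were seen. Nos1, the next measured gene beyond Ksr2, differed by 0.26 with an adjusted p of 0.479 by limma.

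**Figure D3:**
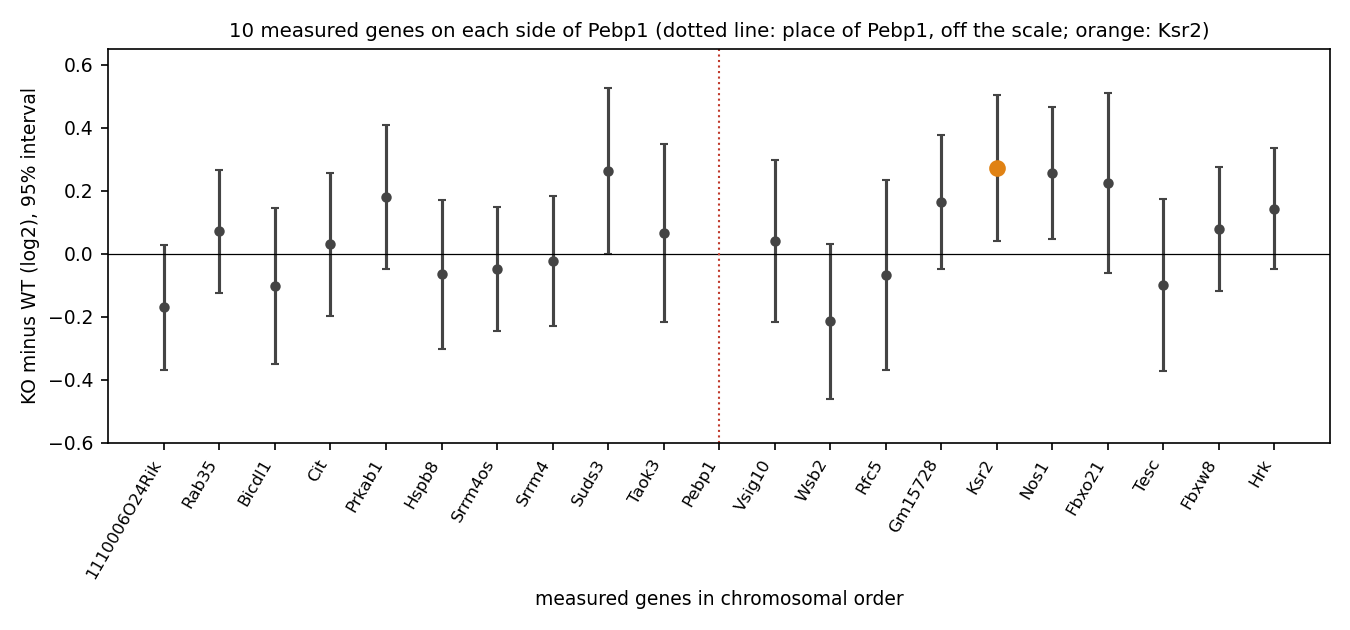
Difference KO minus WT on the log2 scale with 95% interval (y axis) for the 10 measured genes on each side of Pebp1, in chromosomal order (x axis). The place of Pebp1, whose difference of -3.84 is off the scale, is marked by the dotted line, and Ksr2 is orange. The 20 genes lie between -0.21 and 0.27.

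The other genes of the pathway were read from a list of 54, of which 44 had a single-gene probe set, each represented by its brightest. With limma 0 passed in either direction, against 0.132% of all genes, and 3 had an unadjusted p under 0.05, or 6.82% against 10.1% of all genes. Of the 44, 16 were higher and 28 lower in KO, or 63.6% lower against 50.2% of all genes. Their median was -0.034, against -0.00055 over all genes. The groups did not overlap at 4 of the 44, where 14.4% of all genes did not.

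Upstream of Raf, 8 of 13 genes of Ras, its activators and its brakes were higher and 5 lower, with 0 past the limma test and 0 with an unadjusted p under 0.05. The smallest p belonged to Mras, a Ras relative, at 0.25 (interval -0.02 to 0.51), Egfr, a receptor that feeds Ras, at 0.25 (-0.03 to 0.53), and Sos2, a Ras activator, at -0.25 (-0.52 to 0.03). All 3 overlapped between the groups.

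Among scaffolds, chaperones and other cofactors of Raf, 14 of 17 genes were lower in KO, against 50.2% of all genes, and 3 higher. The median of the 17 was -0.047. By limma 0 passed and 0 had an unadjusted p under 0.05. Shoc2, which helps to activate Raf, differed by 0.16, Ywhaz, a 14-3-3 protein that binds phosphorylated Raf, by -0.13, and the chaperone Hsp90aa1 by -0.15, with adjusted p of 0.717, 0.726 and 0.748. Ywhaz alone of the 17 had groups that did not overlap.

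Of the kinases that ERK or its relatives phosphorylate, 4 of 7 listed were measured, and 0 passed the limma test, with 1 at an unadjusted p under 0.05. Rps6ka3, which encodes the ERK substrate RSK2, measured 6.65, 6.99 and 6.95 in KO, against 7.31, 7.16 and 7.17 in WT. Its KO arrays all lay below the WT arrays. The difference of -0.35 (interval -0.60 to -0.10) had an adjusted p of 0.405 by limma, the lowest of the 44 genes. Mknk2 differed by -0.32 and Rps6ka5 by -0.11.

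Relatives and regulators of Rkip-1 were measured for 9 of 10 genes, of which 6 were lower and 3 higher in KO, and 0 passed the limma test, with 1 at an unadjusted p under 0.05. Pebp4, of the same protein family, measured 2.35 ± 0.03 in KO and 2.37 ± 0.10 in WT (SD, n = 3 each), inside the range of the silent genes, and differed by -0.017. Prkce, a protein kinase C, differed by -0.24 (interval -0.48 to -0.0040), Keap1, a ubiquitin ligase adaptor, by -0.21, and Prkca, another protein kinase C, by -0.13. Their adjusted p was 0.570, 0.612 and 0.735 by limma.

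**Figure D4:**
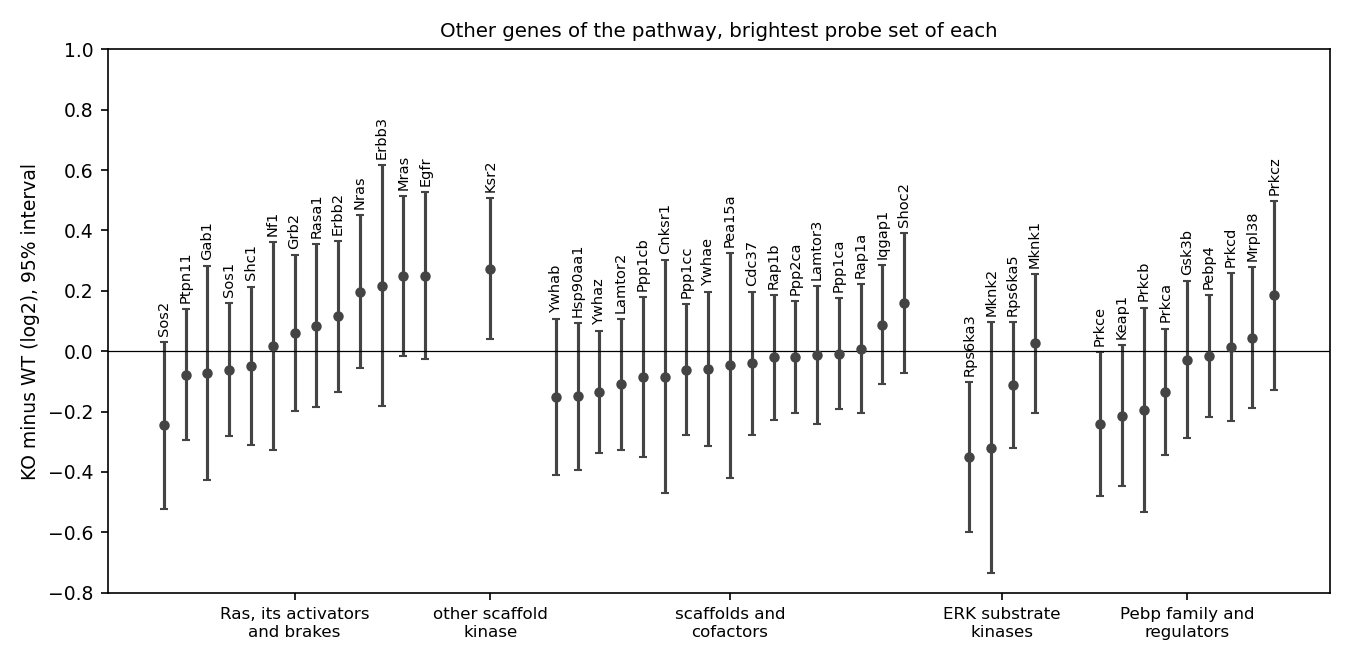
Difference KO minus WT on the log2 scale with 95% interval (y axis) for the 44 measured genes of the pathway outside the chosen genes, grouped by role and sorted by difference. All 44 points lie between -0.35 and 0.27, and the intervals of Rps6ka3, Prkce and Ksr2 leave out 0.

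The gene whose pattern over the 6 arrays was nearest to that of Pebp1 was Fgf21, a secreted metabolic hormone of acinar cells. Nearness was the root mean square difference between mean-centred log2 values and those of 1438649_x_at, over 1 probe set per gene. It was 0.876 for Fgf21, 0.926 for Chac1, 0.987 for G0s2, 1.28 for Trib3 and 1.29 for Ddit4, where a flat profile would give 1.94. All 5 lay lower in every KO array than in any WT array. Their differences were -2.45, -2.63, -2.16, -1.36 and -1.58 in the same order, against -3.84 for Pebp1. By limma, Chac1, Trib3 and Ddit4 did not pass (adjusted p = 0.142, 0.061 and 0.276), while Fgf21 and G0s2 did (0.030 and 0.047). The KO values of Fgf21 and G0s2 lay in the range of the silent genes with Prm1 included, so their differences may be lower bounds in size and give no order of depth. The 5 were chosen for this pattern, so their values are a description.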

How the data were processed

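The authors deposited 1 log2 value per probe set and array for 45101 probe sets, for which the submitters' processing notes name RMA and affy. RMA equalises the distributions of the arrays, which hides shifts common to most transcripts. Versions and settings: not given in the sources used here. Depth has no meaning for arrays, and their number limits the precision.

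The 64 control probe sets were left out. Genes were named from probe sets with a single symbol, 34958 in all, updated by Entrez identifier through a RefSeq table of GRCm38.p6 for 34754. Genotypes were compared with limma 3.58.1 in R 4.3.3 (lmFit, eBayes, all 6 arrays, no covariate, two-sided), and single values per array with exact permutation tests. The code was tested on simulated data with 200 changed probe sets. Limma's p sets each difference against the spread between samples within a group, moderated over all probe sets. The labels call these samples biological replicates.

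Members and lists were chosen with earlier results of these data known. All probe sets of the chosen genes were named, with up to 3 genes of smallest p per list, the 2 nearest genes on each side of Pebp1 and the 5 genes most like Pebp1. Mapk3 and some listed genes of the pathway were not analysed here. Alternatives were a second quantile normalization, equal medians, removal of dim or suffixed probe sets, a variance trend, weighted arrays, a block for replicate number, the Xist level as a covariate, each array left out, 1 value per gene and a threshold of 0.1.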

Additional observations from a re-analysis of the deposited data

How the results depend on the processing

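Pebp1 kept its direction and passed under every alternative that could be computed, and its adjusted p was at most 0.000236 at 1415950_a_at and 0.00157 at 1438649_x_at. The differences ran from -5.47 to -5.07 and from -4.57 to -3.68, and the leave-one-out differences from -5.47 to -5.07 and from -4.08 to -3.68. The -4.57 is the mean of both Pebp1 probe sets, counted with 1438649_x_at, which by itself did not go below -4.08. Removal of suffixed probe sets gave no value for Pebp1, since both carry a suffix. The number of kinase probe sets past the threshold was 0 under all 17 alternatives, and 26 of 297 recomputed kinase differences changed sign, 20 of them with an array left out. Outside those, they were Araf 1426602_at at -0.013 and Ksr1 1419823_s_at at -0.0081 with equal medians, Braf 1435434_at at 0.035 and Ksr1 1419823_s_at at -0.0095 after a second quantile normalization, and Braf 1435434_at at 0.043 and Braf 1456505_at at 0.037 with the Xist covariate. The cause was not tested, and each of these differences was below 0.05 in size in both settings.

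With an array left out, the kinase probe sets that changed sign had differences of -0.045 to 0.094 for Araf 1426602_at, -0.039 to 0.18 for Araf 1440764_at, -0.018 to 0.15 for Braf 1425693_at, -0.12 to 0.051 for Braf 1435434_at, -0.15 to 0.0027 for Braf 1442749_at, -0.15 to 0.14 for Braf 1456505_at, -0.25 to 0.088 for Braf 1458641_at, -0.028 to 0.048 for Ksr1 1419823_s_at, -0.060 to 0.050 for Ksr1 1442581_at, -0.0055 to 0.23 for Ksr1 1450114_at and -0.045 to 0.13 for Map2k2 1415974_at. The largest difference that changed sign under any alternative was 0.13 in size.

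The count of probe sets past the threshold was 44, with 33 higher and 11 lower in KO. It was 22 (19 and 3) with the Xist covariate, 24 (19 and 5) with 1 probe set per gene, 23 (18 and 5) with the mean per gene and 25 (20 and 5) without suffixed probe sets, where the last 3 test fewer features. It was 76 (48 and 28) at a threshold of 0.1. With an array left out it ran from 16 to 41 (13 to 27 higher, 3 to 14 lower), with counts of 24 and 18 when KO replicate 1 or 2 was dropped and of 26 and 16 when WT replicate 1 or 2 was. Deviations from the group means correlated at 0.19, -0.03 and -0.08 between the KO and WT samples of replicate numbers 1, 2 and 3. Samples with different numbers were not compared, so these values do not decide whether samples with the same number deviate together. The replicate number as a block gave 33 calls (27 and 6), left both Pebp1 probe sets at an adjusted p of 1.15e-05 and Map2k1 at 0.579, and changed no call of a chosen gene.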
